A study of Homo sapiens with 12 samples.

Results

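Cholesterol and fatty acids are built by enzyme chains that start from acetyl-CoA, and 31 named genes of those chains and of their control were followed. The cells were Calu-3, an established line of human airway epithelium. The genes were taken from a list by name: 7 for the mevalonate steps up to farnesyl pyrophosphate, 11 for the steps from squalene to cholesterol, 6 for the regulators and a sterol carrier, and 7 for fatty acid synthesis and desaturation. Of the 31 genes, 29 had a probe set (the array's measuring unit for a transcript) that carries their symbol alone, among 18417 genes measured that way. FDFT1 has no value here, and HSD17B7 shared its only probe set with the pseudogene HSD17B7P2. MSMO1 is the gene that older annotation calls SC4MOL.

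RNA levels were measured on 12 whole-transcript arrays. Cells on 3 arrays had received a small interfering RNA (siRNA) against SIN3A, the scaffold of a histone deacetylase complex, and cells on 3 other arrays a mimic of miR-138, a microRNA. The 6 control arrays carried cells given NC1, which the labels also name a scrambled control. The NC1 arrays are kept apart here as replicates 4 to 6 and replicates 1 to 3, because these parts differed from each other. That split goes by the replicate numbers in the labels and was chosen with earlier results of these data known. All cells were transfected with a lipid reagent, so the NC1 cells shared the transfection but not the active RNA. The sources used here give neither dose nor time to harvest. The labels call the arrays biological replicates without saying that they came from separate cultures, so a p-value measures only the spread between these samples, which may be technical. The RNA extraction note, unlike the other labels, speaks of primary cultures. A level below is the deposited log2 value, so a difference of 1 is a 2-fold change, and ± is a standard error (SE) of a difference from the limma fit unless SD is written. A gene was called when its p, adjusted by Benjamini-Hochberg over all 18417 genes, was under 0.05.

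The genes share a control circuit. SREBF1 and SREBF2 encode the SREBP transcription factors, which sit in the membrane of the endoplasmic reticulum bound to SCAP, a sterol sensor that carries them to the Golgi. When sterols are plentiful, the INSIG1 and INSIG2 proteins hold SCAP back. When sterols are scarce, SREBPs reach the Golgi, are cut by proteases and enter the nucleus, where they turn on the enzymes of sterol and fatty acid synthesis, usually together with the factors NF-Y and Sp1. Airway epithelial cells make lipid for their membranes and for secretion.

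The mature miR-138-5p, from RefSeq on GRCh38.p14, is shown because its seed (bases 2 to 8, in capitals) is what a microRNA uses to find its targets. It is encoded at chr3:44114234-44114256 and at chr16:56858527-56858549, both on the plus strand, and the labels do not say which arm the mimic copies.
hsa-miR-138-5p: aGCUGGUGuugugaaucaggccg

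Promoters are shown for 4 of the genes because the members moved together across the control arrays. The windows run from 250 bases before to 50 bases after a RefSeq start on GRCh38.p14, and 27 of the 31 genes had 1 or more such windows (ACAT2, FDFT1, SQLE and FASN did not). Capitals mark the NF-Y box CCAAT, or ATTGG where it lies on the other strand, and in SREBF2 also the sterol regulatory element. MSMO1 (chr4:165327419-165327718, plus strand) and HMGCS1 (chr5:43313363-43313662, minus strand) are enzymes that differed strongly between the NC1 parts, SREBF2 (chr22:41832855-41833154, plus strand) is the regulator with the sterol element, and MVK (chr12:109573544-109573843, plus strand) is an enzyme called in no comparison.
MSMO1: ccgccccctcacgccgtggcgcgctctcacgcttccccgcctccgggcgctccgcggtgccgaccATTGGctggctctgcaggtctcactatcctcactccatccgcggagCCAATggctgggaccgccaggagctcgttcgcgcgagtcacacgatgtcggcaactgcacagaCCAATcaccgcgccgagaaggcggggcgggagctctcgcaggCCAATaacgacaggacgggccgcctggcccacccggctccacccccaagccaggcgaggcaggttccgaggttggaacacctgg
HMGCS1: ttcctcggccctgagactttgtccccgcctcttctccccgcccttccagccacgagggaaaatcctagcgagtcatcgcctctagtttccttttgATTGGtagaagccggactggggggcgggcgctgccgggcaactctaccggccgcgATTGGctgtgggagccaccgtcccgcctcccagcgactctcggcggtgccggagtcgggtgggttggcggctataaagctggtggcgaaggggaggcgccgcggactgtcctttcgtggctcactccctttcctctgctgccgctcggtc
SREBF2: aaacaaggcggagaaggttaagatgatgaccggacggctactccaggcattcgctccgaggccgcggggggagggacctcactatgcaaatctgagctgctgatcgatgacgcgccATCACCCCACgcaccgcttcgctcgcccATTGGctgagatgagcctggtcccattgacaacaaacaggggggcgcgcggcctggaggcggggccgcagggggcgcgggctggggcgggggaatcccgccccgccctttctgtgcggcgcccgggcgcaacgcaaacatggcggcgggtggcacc
MVK: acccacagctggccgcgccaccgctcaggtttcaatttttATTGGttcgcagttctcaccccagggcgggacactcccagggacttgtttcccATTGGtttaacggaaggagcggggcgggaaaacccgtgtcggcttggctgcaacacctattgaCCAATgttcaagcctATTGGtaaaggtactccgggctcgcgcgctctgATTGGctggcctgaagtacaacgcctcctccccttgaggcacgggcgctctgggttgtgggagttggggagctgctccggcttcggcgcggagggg

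The MSMO1 window held 4 CCAAT boxes, the HMGCS1 window shown 2, the MVK window 5 and the SREBF2 window 1. Another HMGCS1 window (chr5:43313132-43313431, minus strand), which is not shown, held 0. Over both strands, CCAAT stood in a window of 20 of the 27 genes (74.1%), against 39.7% of 27305 genes in the RefSeq table. The Sp1 box GGGCGG stood in 26 of 27 (96.3%), against 48.3% of all genes. These shares describe letters in the windows, not bound factors. The comparison genes were all genes with a window, not matched to the members by RNA level or base composition. The E-box CACGTG was found in 4 of 27 (14.8%), against 8.77% of all genes. The sterol regulatory element was searched as TCACNCCAC and in a stricter, overlapping form, the one in capitals in the SREBF2 window. Both matched in 1 of 27 genes (3.7%), SREBF2, against 1.39% and 0.0586% of all genes. Looser forms of the element and bases outside the windows were not searched, so a missing match does not show that a gene lacks one. Among genes with a window and a value, CCAAT stood in 13 of the 17 that were higher in NC1 4 to 6 (76.5%) and in 6 of 9 that were not called (66.7%).

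SIN3A was measured first as a check of the labels. Its log2 level was 6.17, 5.88 and 6.03 in the SIN3A siRNA arrays, 5.93, 6.05 and 6.25 in the mimic arrays, 7.34, 7.16 and 7.11 in NC1 4 to 6 and 6.79, 6.71 and 6.36 in NC1 1 to 3. Every siRNA and mimic array lay below every NC1 array, and SIN3A stood at 54.2% of NC1 after the siRNA (adjusted p = 0.0111) and at 56.1% after the mimic (adjusted p = 0.0304). SIN3A also differed between the control parts, by 0.58 ± 0.12 (adjusted p = 0.00574), so its fall was steeper against NC1 4 to 6. The 11 measured airway epithelial markers averaged 7.61 to 7.69 in siRNA arrays, 7.49 to 7.65 in mimic arrays, 7.62 to 7.66 in NC1 4 to 6 and 7.53 to 7.61 in NC1 1 to 3. The 16 markers of other cell types averaged 4.73 in siRNA arrays, 4.69 to 4.76 in mimic arrays, 4.66 to 4.78 in NC1 4 to 6 and 4.68 to 4.82 in NC1 1 to 3. Array medians over all probe sets lay between 5.09 and 5.16.

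The lipid synthesis genes differed most within the control. In NC1 4 to 6 against NC1 1 to 3, 19 of the 29 genes were higher, where 6.86% of all genes were, and 0 were lower, where 3.18% of all genes were. At an unadjusted p under 0.05 the limma counts were 21 higher and 0 lower. Because the split was chosen with earlier results of these data known, these calls describe the difference and are not an independent test of it. The median difference of the 29 genes was 0.43, against -0.02 for all genes. Each role took part: 4 of 7 mevalonate genes, 7 of 9 measured genes from squalene to cholesterol, 3 of 6 regulators and carriers, and 5 of 7 fatty acid genes were higher. Their medians were 0.41, 0.63, 0.27 and 0.43 in that order. SC5D, HMGCS1, INSIG2, MSMO1 and ACACA led, with differences of 1.49, 1.18, 1.14, 1.07 and 0.98. On each array the median deviation of the 29 genes from their own means was 0.24 to 0.34 in NC1 4 to 6 and -0.35 to -0.12 in NC1 1 to 3, while the same median over all genes stayed between -0.02 and 0.02 on every array. With fewer cells of a type and less RNA per cell not told apart in bulk samples, these are differences in RNA per sample. Of the airway markers 1 of 11 (KRT8, a keratin) was higher in NC1 4 to 6, by 0.39 ± 0.12, and of the other cell type markers 1 of 16 (CD68, a lysosomal protein of macrophages and other cells) was lower, with a difference of -0.46 ± 0.11. Their part in the result was not tested. The sources used here do not say what else distinguishes the control parts.

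**Figure D1:**
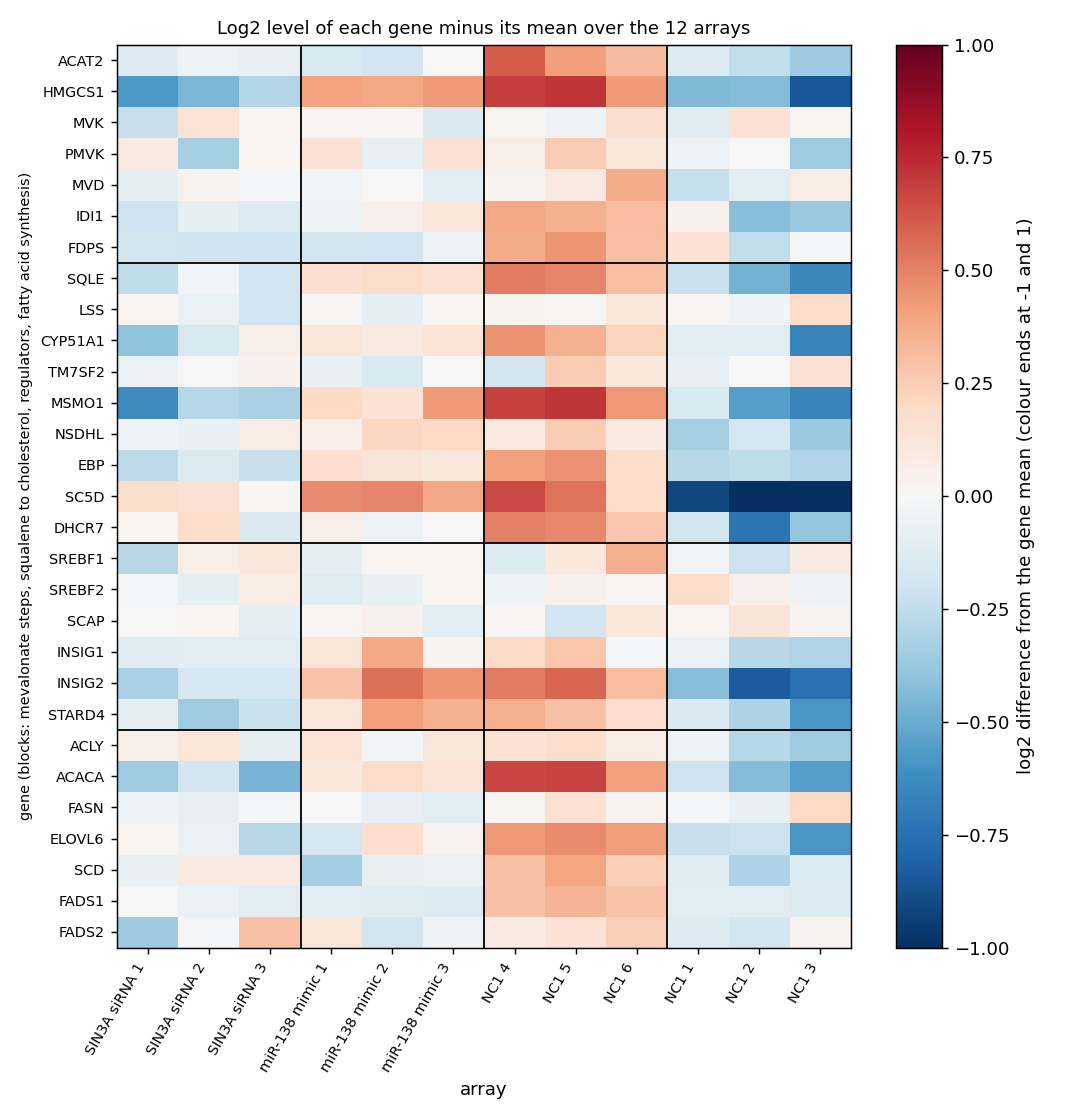
Log2 level of each of the 29 genes minus its mean over the 12 arrays (rows are genes in blocks by role, columns are arrays, red is above and blue is below the gene's mean, colours end at -1 and 1). The NC1 4 to 6 columns are red for most genes and the NC1 1 to 3 columns blue, with a band of pale genes that includes SREBF2, SCAP, MVK, LSS and FASN.

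Both interventions lay between the control parts. The siRNA mean fell between the NC1 means for 22 of 29 genes (36% of all genes), and the mimic mean for 19 of 29 (38.8% of all genes). A mean falls between the control means more readily where these lie far apart. These counts are therefore not a result separate from the gap between the control parts. NC1 4 to 6 had the highest mean of the 4 groups for 23 of 29 genes, against 23.9% of all genes, and NC1 1 to 3 had the lowest for 21 of 29, against 24.5% of all genes. On single arrays the median deviation was -0.10, -0.07 and -0.10 after the siRNA and 0.06, 0.02 and 0.03 after the mimic. The direction of either intervention therefore depended on the part of the control it was set against.

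**Figure D2:**
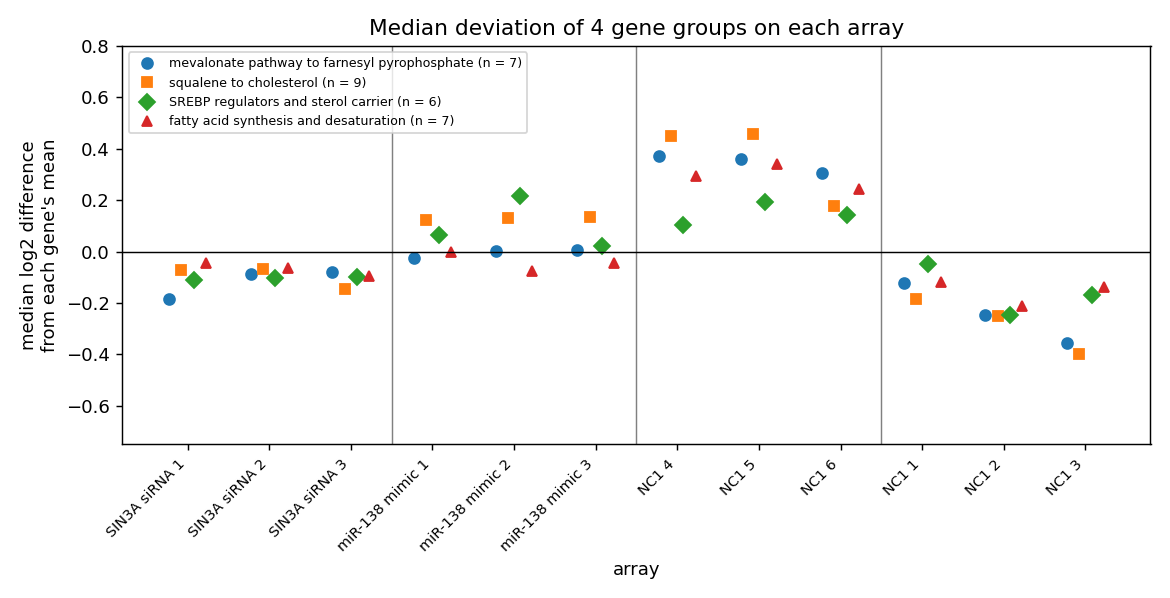
Median log2 difference from each gene's own mean on each array (y axis) for the 4 roles (symbols), with arrays grouped on the x axis as SIN3A siRNA, miR-138 mimic, NC1 4-6 and NC1 1-3. All 4 roles lie above 0 on every NC1 4 to 6 array and below 0 on every NC1 1 to 3 and every siRNA array.

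After SIN3A siRNA, against NC1 4 to 6, 14 of 29 genes were lower, where 6.28% of all genes were, and 0 were higher, where 5.16% of all genes were. Unadjusted p under 0.05 counted 17 lower and 0 higher in the same limma fit, and the median was -0.35, against 0.005 for all genes. In the same comparison ELF3, an epithelial transcription factor and 1 of the 11 airway markers, was lower, with -0.38 ± 0.09 (adjusted p = 0.014), and CD68, 1 of the 16 other cell type markers, was higher, by 0.55 ± 0.11 (adjusted p = 0.00266). Their part in the result was not tested. Against NC1 1 to 3, 3 of 29 genes were higher after the siRNA, where 3.66% of all genes were, and 0 were lower, where 2.04% of all genes were (unadjusted, 7 and 0), with a median of 0.07. These 3 were SC5D, DHCR7 and INSIG2. That count was 5 without NC1 1 and 1 without NC1 2, NC1 3, SIN3A siRNA 1 or SIN3A siRNA 2, and SC5D was the call that held in all 12 fits that left out an array. The comparisons with both parts share the siRNA arrays.

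After the miR-138 mimic, against NC1 1 to 3, 11 of 29 genes were higher, where 6.01% of all genes were, and 0 were lower, where 2.54% of all genes were (unadjusted, 15 and 0). The median was 0.29, against -0.02 for all genes. Against NC1 4 to 6, 5 of 29 genes were lower after the mimic, where 1.89% of all genes were, and 0 were higher, where 1.59% of all genes were (unadjusted, 11 and 0), with a median of -0.19. The 11 higher genes came mostly from the late sterol steps and the regulators: 6 of 9 from squalene to cholesterol, 3 of 6 regulators and carriers, HMGCS1 and ACACA. The 5 lower genes were ACAT2, FDPS, ACACA, SCD and FADS1, from the mevalonate and fatty acid chains. That count was 3 without NC1 5 or without miR-138 mimic 1. CD68 was also higher after the mimic than in NC1 4 to 6, by 0.48 ± 0.11 (adjusted p = 0.0164), with no airway marker called, and its part in the result was not tested. Against NC1 1 to 3 no marker of either list was called after the siRNA or the mimic.

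**Figure D3:**
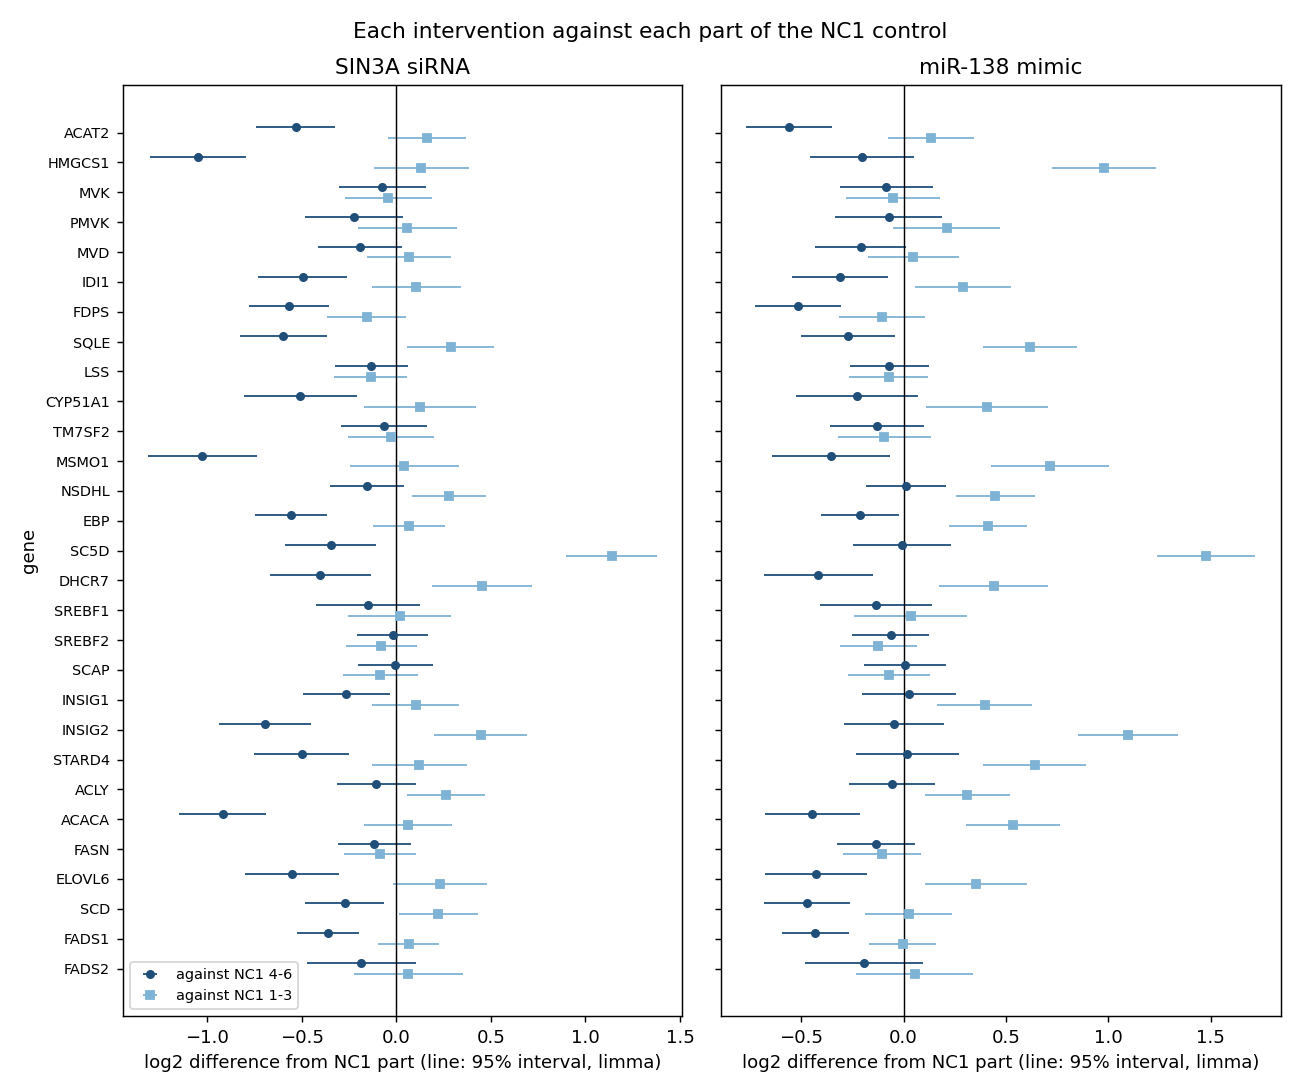
Log2 difference of SIN3A siRNA (left panel) and miR-138 mimic (right panel) from NC1 4-6 (dark circles) and NC1 1-3 (light squares) for each gene, with 95% intervals from limma. For most genes the dark circles lie left of 0 and the light squares right of it, and SC5D after the mimic lies at 1.48 against NC1 1 to 3 and at -0.01 against NC1 4 to 6.

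Against all 6 NC1 arrays no lipid synthesis gene passed the limma test in either intervention. After the siRNA 0 were higher and 0 lower, where 2.35% and 1.66% of all genes were (unadjusted, 0 higher and 1 lower), with a median of -0.10 and a median SE of 0.13. After the mimic 0 were higher and 0 lower, where 0.641% and 0.402% of all genes were (unadjusted, 0 higher and 1 lower), with a median of -0.009. The spread within NC1 was the wider for holding both parts, as with HMGCS1, which averaged 8.78 ± 0.67 in NC1 (SD, n = 6). When the NC1 parts were given separate means in the fit and each intervention was set against their average, an alternative added once the data were known, 5 genes passed after the siRNA: SC5D was higher, by 0.40 ± 0.10 (adjusted p = 0.0178), and HMGCS1, MSMO1, ACACA and FDPS were lower, with differences of -0.46, -0.49, -0.43 and -0.36. In that fit 4.64% of all genes were higher and 3.93% lower after the siRNA. After the mimic 3 genes were higher and 0 lower in that fit, where 2.93% and 1.52% of all genes were: SC5D, by 0.73 ± 0.10, INSIG2, by 0.53 ± 0.10, and HMGCS1, by 0.39 ± 0.10 (adjusted p = 0.0423). The SE in that fit leaves out the gap between the parts, and higher or lower refers to a midpoint where neither part lay. Except for FDPS, the intervention means of these genes lay between the NC1 means. SC5D averaged 5.02 after the siRNA, 3.88 in NC1 1 to 3 and 5.37 in NC1 4 to 6. Without NC1 2, the fit with 3 group means called 1 gene lower after the siRNA, FDPS, with -0.45 (adjusted p = 0.0247).

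The mimic and the siRNA were also compared directly. In the fit with 3 group means 0 genes were higher and 0 lower after the mimic than after the siRNA, where 0.679% and 0.89% of all genes were. Unadjusted, 3 were higher and 0 lower. HMGCS1 differed by 0.85 with a 95% interval of 0.14 to 1.55, STARD4 by 0.52 (0.09 to 0.95) and MSMO1 by 0.67 (0.01 to 1.34), and none of the 3 passed the adjusted threshold. With the NC1 parts as separate means, which changes the spread but not the differences, 6 genes were higher after the mimic and 0 lower, where 3.26% and 2.6% of all genes were. They were HMGCS1 (0.85 ± 0.12, adjusted p = 0.000452), MSMO1 (0.67 ± 0.14), INSIG2 (0.65 ± 0.12), STARD4 (0.52 ± 0.12), ACACA (0.47 ± 0.11) and EBP (0.34 ± 0.09). These values take the arrays as they stand. When instead NC1 1 to 3 was taken as the control of the siRNA arrays and NC1 4 to 6 as that of the mimic arrays (the array set as a block, a grouping that is not in the labels), the direction turned. In that fit 5 genes were lower after the mimic and 0 higher, where 1.19% and 0.896% of all genes were, and the median was -0.32, against 0.06 in the main fit. The 5 were SC5D (-1.15 ± 0.16), DHCR7 (-0.87 ± 0.18), ACAT2 (-0.72 ± 0.14), SCD (-0.69 ± 0.14) and FADS1 (-0.50 ± 0.11). Under that grouping the 14 lower genes (siRNA against NC1 4 to 6) and 11 higher genes (mimic against NC1 1 to 3) come from comparisons across sets. Over all genes the mimic arrays had a mean correlation of 0.985 with NC1 4 to 6 and 0.979 with NC1 1 to 3. For the siRNA arrays these were 0.978 and 0.980, and between siRNA and mimic 0.984. Which grouping matches how the arrays were made cannot be told apart from the labels, and it was not tested.

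The mevalonate steps turn acetyl-CoA into the building blocks of sterols. HMGCS1, the cytosolic synthase of HMG-CoA, had levels of 8.19, 8.30 and 8.47 in the SIN3A siRNA arrays and 9.16, 9.15 and 9.19 in the mimic arrays. HMGCS1 levels in NC1 were 9.45, 9.47 and 9.18 in replicates 4 to 6 and 8.32, 8.33 and 7.91 in replicates 1 to 3. All NC1 4 to 6 and mimic arrays lay above all siRNA and NC1 1 to 3 arrays. It was lower after the siRNA than in NC1 4 to 6, with a difference of -1.05 ± 0.12 (adjusted p = 2.5e-05), and higher after the mimic than in NC1 1 to 3, by 0.98 ± 0.12 (adjusted p = 9.48e-05). Between the control parts it was higher in NC1 4 to 6 by 1.18 ± 0.12 (adjusted p = 9.09e-06). ACAT2, the cytosolic thiolase that joins acetyl-CoA units at the head of the pathway, had 7.60, 7.68 and 7.65 in the SIN3A siRNA arrays and 7.57, 7.53 and 7.74 in the mimic arrays. ACAT2 levels in NC1 were 8.34, 8.15 and 8.04 in replicates 4 to 6 and 7.60, 7.48 and 7.37 in replicates 1 to 3. Here NC1 4 to 6 alone stood apart, above every other array. ACAT2 was lower than in NC1 4 to 6 after the siRNA, with -0.53 ± 0.10 (adjusted p = 0.00175), and after the mimic, with -0.56 ± 0.10 (adjusted p = 0.00319), and the control parts differed by 0.69 ± 0.10 (adjusted p = 0.00024).

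FDPS, which makes farnesyl pyrophosphate, had 7.95, 7.94 and 7.93 in the SIN3A siRNA arrays and 7.95, 7.94 and 8.08 in the mimic arrays. FDPS levels in NC1 were 8.51, 8.58 and 8.44 in replicates 4 to 6 and 8.28, 7.89 and 8.13 in replicates 1 to 3. The 3 NC1 4 to 6 arrays were again above all others, and both interventions lay close to NC1 1 to 3. Against NC1 4 to 6 it was lower after the siRNA, with -0.57 ± 0.10 (adjusted p = 0.00114), and after the mimic, with -0.52 ± 0.10 (adjusted p = 0.00586), while the control parts differed by 0.41 ± 0.10 (adjusted p = 0.0133). That last call was lost without NC1 2 or 5 (adjusted p up to 0.0726). IDI1, the isomerase that precedes FDPS, had 7.0, 7.12 and 7.07 in the SIN3A siRNA arrays and 7.17, 7.25 and 7.32 in the mimic arrays. IDI1 levels in NC1 were 7.60, 7.56 and 7.51 in replicates 4 to 6 and 7.25, 6.78 and 6.84 in replicates 1 to 3, with NC1 4 to 6 above all other arrays. It was lower after the siRNA than in NC1 4 to 6, with -0.49 ± 0.11 (adjusted p = 0.00699), and the control parts differed by 0.60 ± 0.11 (adjusted p = 0.00191). MVK, PMVK and MVD, the kinases and the decarboxylase between HMG-CoA and IDI1, were called in no comparison. Their differences between NC1 4 to 6 and NC1 1 to 3 were 0.03 ± 0.11, 0.28 ± 0.12 and 0.26 ± 0.10. A pair of probe sets shared by FDPS and the pseudogene FDPSP2 differed by 0.38 and 0.50 between the control parts, beside 0.41 for the FDPS probe set. After the siRNA they differed from NC1 4 to 6 by -0.50 and -0.55, beside -0.57 for FDPS. After the mimic they differed from NC1 4 to 6 by -0.14 and -0.22, beside -0.52, and from NC1 1 to 3 by 0.24 and 0.28, beside -0.11. The signals of both loci are not told apart in the shared probe sets.

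The steps from squalene to cholesterol held the widest difference. SC5D, the sterol C5-desaturase, had 5.08, 5.06 and 4.92 in the SIN3A siRNA arrays and 5.38, 5.40 and 5.30 in the mimic arrays. SC5D levels in NC1 were 5.57, 5.46 and 5.08 in replicates 4 to 6 and 4.0, 3.85 and 3.80 in replicates 1 to 3. Every other array lay above the 3 NC1 1 to 3 arrays, and every mimic array lay above every siRNA array. Against NC1 1 to 3 it was higher after the siRNA, by 1.14 ± 0.11 (adjusted p = 3.24e-05), after the mimic, by 1.48 ± 0.11 (adjusted p = 9.19e-07), and in NC1 4 to 6, by 1.49 ± 0.11 (adjusted p = 4.21e-07). Against NC1 4 to 6 it differed by -0.35 ± 0.11 (adjusted p = 0.0607) after the siRNA and by -0.01 ± 0.11 (adjusted p = 0.995) after the mimic, neither of them called. MSMO1, the sterol C4-methyl oxidase, had 6.08, 6.42 and 6.38 in the SIN3A siRNA arrays and 6.90, 6.85 and 7.13 in the mimic arrays. MSMO1 levels in NC1 were 7.39, 7.42 and 7.14 in replicates 4 to 6 and 6.55, 6.15 and 6.05 in replicates 1 to 3. As with HMGCS1, all mimic and NC1 4 to 6 arrays lay above all siRNA and NC1 1 to 3 arrays. MSMO1 was lower after the siRNA than in NC1 4 to 6, with -1.03 ± 0.14 (adjusted p = 0.000102), higher after the mimic than in NC1 1 to 3, by 0.71 ± 0.14 (adjusted p = 0.00334), and higher in NC1 4 to 6 than in NC1 1 to 3, by 1.07 ± 0.14 (adjusted p = 8.54e-05).

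**Figure D4:**
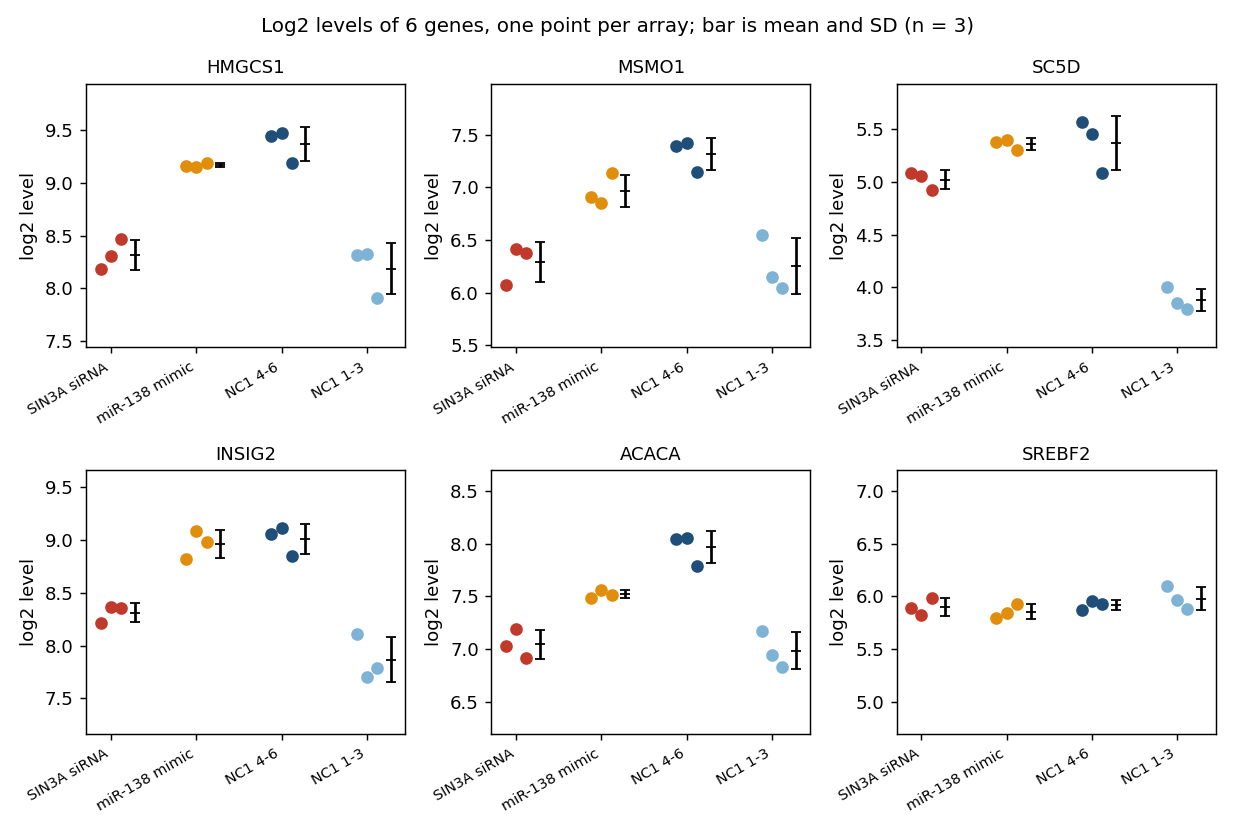
Log2 levels of HMGCS1, MSMO1, SC5D, INSIG2, ACACA and SREBF2 (y axes, all spanning the same number of log2 units), 1 point per array in SIN3A siRNA, miR-138 mimic, NC1 4-6 and NC1 1-3, with the mean and SD of each 3 arrays as a bar. In HMGCS1 and MSMO1 the mimic and NC1 4 to 6 points lie above the siRNA and NC1 1 to 3 points, in SC5D only NC1 1 to 3 stands low, and the SREBF2 points of all groups overlap.

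SQLE, squalene epoxidase, the oxygen-requiring entry to the sterol ring, had 8.27, 8.50 and 8.33 in the SIN3A siRNA arrays and 8.70, 8.71 and 8.68 in the mimic arrays. SQLE levels in NC1 were 9.05, 9.02 and 8.83 in replicates 4 to 6 and 8.30, 8.05 and 7.88 in replicates 1 to 3. EBP, a sterol isomerase, had 8.33, 8.46 and 8.36 in the SIN3A siRNA arrays and 8.76, 8.72 and 8.70 in the mimic arrays. EBP levels in NC1 were 9.0, 9.05 and 8.77 in replicates 4 to 6 and 8.31, 8.34 and 8.29 in replicates 1 to 3. Both followed the HMGCS1 order, with mimic and NC1 4 to 6 arrays above siRNA and NC1 1 to 3 arrays and NC1 4 to 6 the highest. SQLE was lower after the siRNA than in NC1 4 to 6, with -0.60 ± 0.11 (adjusted p = 0.00147), and higher after the mimic than in NC1 1 to 3, by 0.62 ± 0.11 (adjusted p = 0.00191), and EBP differed by -0.56 ± 0.09 (adjusted p = 0.0006) and 0.41 ± 0.09 (adjusted p = 0.00824) in the same comparisons. Between the control parts SQLE was higher in NC1 4 to 6 by 0.89 ± 0.11 (adjusted p = 5.7e-05) and EBP by 0.63 ± 0.09 (adjusted p = 0.00026). EBP missed the threshold against NC1 1 to 3 after a second quantile normalization, with a difference of 0.27.

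DHCR7, the reductase that makes cholesterol in the last step, had 6.20, 6.36 and 6.04 in the SIN3A siRNA arrays and 6.24, 6.13 and 6.18 in the mimic arrays. DHCR7 levels in NC1 were 6.69, 6.66 and 6.45 in replicates 4 to 6 and 6.0, 5.45 and 5.78 in replicates 1 to 3. Both interventions lay between the parts, with no overlap on either side. Against NC1 4 to 6 the siRNA difference was -0.40 ± 0.13 (adjusted p = 0.0488), and against NC1 1 to 3 the siRNA and mimic differences were 0.45 ± 0.13 (adjusted p = 0.0437) and 0.44 ± 0.13 (adjusted p = 0.0389). The control parts differed by 0.86 ± 0.13 (adjusted p = 0.000304). The siRNA call was lost in 7 of 12 fits that left out an array against NC1 4 to 6 (SIN3A siRNA 1 or 3, NC1 4 or 5, miR-138 mimic 1, 2 or 3, with adjusted p up to 0.209). Against NC1 1 to 3 it was lost in 9 of 12 (NC1 2, 3, 4 or 5, SIN3A siRNA 1 or 2, miR-138 mimic 1, 2 or 3, up to 0.175), and the mimic call was lost in 7 of 12 (NC1 2, 3 or 5, SIN3A siRNA 1, miR-138 mimic 1, 2 or 3; up to 0.169). NSDHL, a sterol dehydrogenase, had 6.80, 6.77 and 6.91 in the SIN3A siRNA arrays and 6.91, 7.04 and 7.04 in the mimic arrays. NSDHL levels in NC1 were 6.93, 7.10 and 6.92 in replicates 4 to 6 and 6.51, 6.67 and 6.47 in replicates 1 to 3, and every other array lay above the NC1 1 to 3 arrays. It was higher than in NC1 1 to 3 after the mimic, by 0.45 ± 0.09 (adjusted p = 0.00559), and in NC1 4 to 6, by 0.43 ± 0.09 (adjusted p = 0.00527). CYP51A1, the lanosterol demethylase, had 6.89, 7.13 and 7.34 in the SIN3A siRNA arrays and 7.41, 7.38 and 7.42 in the mimic arrays. CYP51A1 levels in NC1 were 7.73, 7.64 and 7.50 in replicates 4 to 6 and 7.18, 7.18 and 6.62 in replicates 1 to 3, with NC1 4 to 6 the highest and the mimic arrays next. It was lower after the siRNA than in NC1 4 to 6, with -0.51 ± 0.14 (adjusted p = 0.026), and the control parts differed by 0.63 ± 0.14 (adjusted p = 0.0077). The siRNA call was lost without SIN3A siRNA 1 or 2, NC1 4 or 5 (adjusted p up to 0.131), and a second CYP51A1 probe set differed by -0.12 ± 0.13 there and by 0.36 ± 0.13 between the control parts. LSS, which closes the lanosterol ring, and TM7SF2, a sterol reductase, were called in no comparison and differed by -0.004 and 0.03 between the control parts. The probe set that HSD17B7 shares with its pseudogene differed by -0.64 ± 0.09 between siRNA and NC1 4 to 6, by 0.35 ± 0.09 between mimic and NC1 1 to 3 and by 0.67 ± 0.09 between the control parts, and which locus moved is uncertain.

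Among the regulators, the genes for the transcription factors and their escort did not pass any test, and the feedback genes did. INSIG2, which holds SCAP in the endoplasmic reticulum, had 8.21, 8.37 and 8.36 in the SIN3A siRNA arrays and 8.82, 9.09 and 8.98 in the mimic arrays. INSIG2 levels in NC1 were 9.06, 9.12 and 8.85 in replicates 4 to 6 and 8.11, 7.70 and 7.79 in replicates 1 to 3. All mimic and NC1 4 to 6 arrays lay above the siRNA arrays, and these above NC1 1 to 3. INSIG2 was lower after the siRNA than in NC1 4 to 6, with -0.69 ± 0.12 (adjusted p = 0.000767), and higher than in NC1 1 to 3 after the siRNA, by 0.45 ± 0.12 (adjusted p = 0.0323), and after the mimic, by 1.10 ± 0.12 (adjusted p = 2.54e-05). Between the control parts it was higher in NC1 4 to 6 by 1.14 ± 0.12 (adjusted p = 9.09e-06). The siRNA call against NC1 1 to 3 was lost without NC1 2 or 3, SIN3A siRNA 1, 2 or 3 (adjusted p up to 0.128). INSIG1, which has the same role and is itself an SREBP target, had 6.14, 6.14 and 6.15 in the SIN3A siRNA arrays and 6.38, 6.64 and 6.28 in the mimic arrays. INSIG1 levels in NC1 were 6.44, 6.53 and 6.24 in replicates 4 to 6 and 6.19, 5.98 and 5.95 in replicates 1 to 3. Its mimic and NC1 4 to 6 arrays lay above its siRNA and NC1 1 to 3 arrays.

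INSIG1 was higher than in NC1 1 to 3 after the mimic, by 0.40 ± 0.11 (adjusted p = 0.0324), and in NC1 4 to 6, by 0.37 ± 0.11 (adjusted p = 0.0415). The mimic call was lost without NC1 2 or 3, miR-138 mimic 1 or 2 (adjusted p up to 0.168) and the control call in 8 of 12 fits (NC1 2, 3, 4 or 5, SIN3A siRNA 1, 2 or 3, miR-138 mimic 1; up to 0.187). STARD4, a carrier that moves cholesterol between membranes, had 6.78, 6.53 and 6.66 in the SIN3A siRNA arrays and 6.99, 7.29 and 7.24 in the mimic arrays. STARD4 levels in NC1 were 7.24, 7.17 and 7.05 in replicates 4 to 6 and 6.73, 6.57 and 6.29 in replicates 1 to 3, with mimic and NC1 4 to 6 arrays above siRNA and NC1 1 to 3 arrays. It was lower after the siRNA than in NC1 4 to 6, with -0.50 ± 0.12 (adjusted p = 0.0105), and higher than in NC1 1 to 3 after the mimic, by 0.64 ± 0.12 (adjusted p = 0.00279), and in NC1 4 to 6, by 0.62 ± 0.12 (adjusted p = 0.00254). The siRNA call was lost without SIN3A siRNA 2 or NC1 4 (adjusted p up to 0.0569). SREBF1, SREBF2 and SCAP differed between the control parts by 0.17 ± 0.13, -0.06 ± 0.09 and -0.08 ± 0.09, and the siRNA and mimic differences from either part lay between -0.15 and 0.03. SREBF2, the factor that mainly serves sterol synthesis, had 5.89, 5.82 and 5.98 in the SIN3A siRNA arrays and 5.79, 5.84 and 5.93 in the mimic arrays. SREBF2 levels in NC1 were 5.87, 5.96 and 5.93 in replicates 4 to 6 and 6.09, 5.96 and 5.88 in replicates 1 to 3, and its groups overlapped. Its RNA level says nothing of how much of the protein is cut and active.

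Fatty acid synthesis starts from the same acetyl-CoA. ACACA, the acetyl-CoA carboxylase that commits carbon to fatty acids, had 7.03, 7.19 and 6.92 in the SIN3A siRNA arrays and 7.48, 7.56 and 7.52 in the mimic arrays. ACACA levels in NC1 were 8.04, 8.06 and 7.79 in replicates 4 to 6 and 7.17, 6.95 and 6.83 in replicates 1 to 3. NC1 4 to 6 was above all other arrays, and the mimic arrays were above the siRNA and NC1 1 to 3 arrays. ACACA was lower after the siRNA than in NC1 4 to 6, with -0.92 ± 0.11 (adjusted p = 3.62e-05). After the mimic it was lower than in NC1 4 to 6, with -0.45 ± 0.11 (adjusted p = 0.03), and higher than in NC1 1 to 3, by 0.53 ± 0.11 (adjusted p = 0.00543). The control parts differed by 0.98 ± 0.11 (adjusted p = 2.49e-05). The mimic call against NC1 4 to 6 was lost without NC1 4 or 5, miR-138 mimic 1, 2 or 3 (adjusted p up to 0.146). FADS1, the delta-5 fatty acid desaturase, had 6.43, 6.37 and 6.33 in the SIN3A siRNA arrays and 6.32, 6.31 and 6.29 in the mimic arrays. FADS1 levels in NC1 were 6.73, 6.77 and 6.72 in replicates 4 to 6 and 6.32, 6.32 and 6.3 in replicates 1 to 3. It was high in NC1 4 to 6 alone, and all other arrays lay between 6.29 and 6.43. FADS1 was lower than in NC1 4 to 6 after the siRNA, with -0.36 ± 0.08 (adjusted p = 0.00504), and after the mimic, with -0.43 ± 0.08 (adjusted p = 0.00365), and the control parts differed by 0.43 ± 0.08 (adjusted p = 0.00169).

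SCD, the stearoyl-CoA desaturase that makes oleate, had 7.99, 8.16 and 8.16 in the SIN3A siRNA arrays and 7.73, 7.99 and 8.0 in the mimic arrays. SCD levels in NC1 were 8.36, 8.46 and 8.31 in replicates 4 to 6 and 7.95, 7.76 and 7.94 in replicates 1 to 3. Every NC1 4 to 6 array lay above every other array. SCD was lower after the mimic than in NC1 4 to 6, with -0.47 ± 0.10 (adjusted p = 0.0116), a call lost without NC1 5 or miR-138 mimic 1 (adjusted p up to 0.0823), and the control parts differed by 0.50 ± 0.10 (adjusted p = 0.0037). ELOVL6, which lengthens palmitate to stearate, had 4.85, 4.77 and 4.56 in the SIN3A siRNA arrays and 4.67, 5.0 and 4.87 in the mimic arrays. ELOVL6 levels in NC1 were 5.27, 5.31 and 5.26 in replicates 4 to 6 and 4.61, 4.62 and 4.25 in replicates 1 to 3, again with NC1 4 to 6 above all others. It was lower after the siRNA than in NC1 4 to 6, with -0.55 ± 0.12 (adjusted p = 0.00503), and the control parts differed by 0.78 ± 0.12 (adjusted p = 0.000369). ACLY, which makes cytosolic acetyl-CoA from citrate, had 6.61, 6.67 and 6.45 in the SIN3A siRNA arrays and 6.69, 6.52 and 6.67 in the mimic arrays. ACLY levels in NC1 were 6.70, 6.73 and 6.62 in replicates 4 to 6 and 6.49, 6.26 and 6.19 in replicates 1 to 3. Its siRNA, mimic and NC1 4 to 6 arrays overlapped, and it was called between the control parts, by 0.37 ± 0.10 (adjusted p = 0.0243). That call was lost without NC1 2, 3, 4 or 5 (adjusted p up to 0.103). FASN, the fatty acid synthase, and FADS2, the delta-6 desaturase, were called in no comparison and differed by 0.03 ± 0.09 and 0.25 ± 0.14 between the control parts.

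The 10 genes called in no comparison were MVK, PMVK, MVD, LSS, TM7SF2, SREBF1, SREBF2, SCAP, FASN and FADS2. Their probe sets were dimmer: mean levels over the 12 arrays ran from 4.36 to 6.57 with a median of 5.28, against 4.84 to 8.76 with a median of 7.20 for the 19 called genes, and 5 of the 10 but 2 of the 19 lay below the median of all genes (5.29). The part of probe brightness in the missing calls was not tested. SC5D and ELOVL6 were among the dim ones and were still called. Within groups the median SD of the 29 genes was 0.10 in the siRNA arrays, 0.08 in the mimic arrays, 0.12 in NC1 4 to 6 and 0.15 in NC1 1 to 3, against 0.10, 0.09, 0.11 and 0.14 over all genes.

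Other lists of genes of sterol and lipid handling were set against the same contrasts. Of 12 measured genes of sterol regulation outside the 31, 2 were higher in NC1 4 to 6 than in NC1 1 to 3 and 0 lower, where 6.86% and 3.18% of all genes were (unadjusted in limma, 2 and 1). They were MBTPS2, the site-2 protease that frees SREBP, by 0.39 ± 0.10, and ERLIN1, a membrane protein of the endoplasmic reticulum, by 0.49 ± 0.14. After the siRNA 1 of the 12 was higher and 4 lower than in NC1 4 to 6, where 5.16% and 6.28% of all genes were. The lower ones with the smallest adjusted p were ERLIN1 (-0.75 ± 0.14), ERLIN2 (-0.42 ± 0.09) and MBTPS2 (-0.45 ± 0.10). RNF139, a ubiquitin ligase of the same membrane, was higher after the siRNA than in all NC1 arrays by 0.49 ± 0.10 (adjusted p = 0.0148) and ERLIN2 lower, with -0.34 ± 0.09 (adjusted p = 0.0453). After the mimic 0 of the 12 passed the limma test against NC1 4 to 6, where 1.59% of all genes were higher and 1.89% lower (unadjusted, 2 higher and 3 lower), or against NC1 1 to 3, where 6.01% were higher and 2.54% lower (unadjusted, 3 higher and 1 lower).

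Of 21 genes of cholesterol transport and storage, 6 were higher in NC1 4 to 6 than in NC1 1 to 3 and 0 lower, where 6.86% and 3.18% of all genes were (unadjusted in limma, 7 and 1). The list median was -0.01. The 3 with the smallest adjusted p were CAV1, the coat protein of caveolae (0.88 ± 0.10), LRP8, a lipoprotein receptor (0.62 ± 0.09), and TMEM97, a sterol-responsive membrane protein (0.50 ± 0.08). After the siRNA 4 of the 21 were lower than in NC1 4 to 6 and 1 higher, where 6.28% and 5.16% of all genes were. The same 3 had the smallest adjusted p among the lower ones, with -0.87 ± 0.10, -0.62 ± 0.09 and -0.55 ± 0.08. After the mimic LRP8 (-0.49 ± 0.09) and TMEM97 (-0.34 ± 0.08) were lower than in NC1 4 to 6 and LIPA, the lysosomal acid lipase, was higher (0.51 ± 0.12), where 1.89% and 1.59% of all genes were. After the mimic 4 of 21 were higher than in NC1 1 to 3 and 0 lower, where 6.01% and 2.54% of all genes were. By adjusted p the first 3 were CAV1 (0.79 ± 0.10), VLDLR (0.51 ± 0.09) and SOAT1, the enzyme that esterifies cholesterol (0.73 ± 0.14). NPC2, the lysosomal cholesterol carrier, did not follow the control parts: it was higher after the siRNA than in all NC1 arrays by 0.44 ± 0.07 (adjusted p = 0.00529), and after the mimic it was lower than after the siRNA, with -0.48 ± 0.08 (adjusted p = 0.0116).

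Of 27 genes of fatty acid activation, elongation and glycerolipid synthesis, 6 were higher in NC1 4 to 6 than in NC1 1 to 3 and 0 lower, where 6.86% and 3.18% of all genes were (unadjusted in limma, 11 and 0). The list median was 0.10. The 3 with the smallest adjusted p were HACD2, a dehydratase of fatty acid elongation (1.16 ± 0.15), LPCAT3, which remodels phospholipids (0.51 ± 0.11), and ACSL4, an acyl-CoA synthetase (0.47 ± 0.11). HACD2 and ACSL4 were the 2 of 27 that were lower after the siRNA than in NC1 4 to 6, with -1.16 ± 0.15 and -0.73 ± 0.11, where 6.28% of all genes were. ACSL5, another acyl-CoA synthetase, was the 1 that was higher, by 0.61 ± 0.13, where 5.16% of all genes were. ACSL5 was also higher after the siRNA than in all NC1 arrays, by 0.54 ± 0.11 (adjusted p = 0.016). After the mimic 4 of 27 were higher than in NC1 1 to 3 and 0 lower, where 6.01% and 2.54% of all genes were. By adjusted p the first 3 were HACD2 (0.85 ± 0.15), ELOVL7 (0.61 ± 0.15) and LPCAT3 (0.43 ± 0.11). Against NC1 4 to 6, where 1.59% of all genes were higher and 1.89% lower, 0 of 27 passed the limma test (unadjusted, 2 higher and 1 lower).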

How the data were processed

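The 12 arrays were analysed from the log2 values the authors deposited for each probe set. The submitters' processing notes name RMA and Partek 6.3 and do not say which step each did. Values lay between 1.43 and 13.2. The number of arrays limits the precision. Over all genes the median SE of a siRNA difference was 0.10 against NC1 and 0.11 against NC1 1 to 3.

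Probe sets with a single gene symbol were kept (19460 of 33297), and the one with the highest mean over the 12 arrays stood for its gene. This left 18417 genes, with no filter on dim ones. All genes were fitted with limma 3.58.1 in R 4.3.3. A fit with 3 group means (9 residual degrees of freedom) gave SIN3A siRNA and miR-138 mimic against NC1 and against each other, and a fit with NC1 1 to 3 and NC1 4 to 6 apart (8 residual degrees of freedom) gave the comparisons with each part. p-values were adjusted by Benjamini-Hochberg over all genes and called under 0.05. The members, the other lists and the control parts were chosen with earlier results of these data known. A member called in at least 1 of the 8 contrasts is given with every array, others by range and counts, and up to 3 genes with the smallest adjusted p from each other list. The fit with the NC1 parts apart was tried on simulated data, for SIN3A siRNA against NC1 1 to 3 only. The simulated NC1 parts did not differ. The fit with 3 group means was not tried that way. Promoter windows and the miRNA came from RefSeq tables of GRCh38.p14 and were searched on both strands. Alternatives were a second quantile normalization, only genes above the median level, the mean of a gene's probe sets, the array set or the replicate number as a block, the 6 arrays of a contrast alone, each array left out, and, added after the data were seen, the NC1 parts as separate means.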

Additional observations from a re-analysis of the deposited data

Results flagged for a closer look

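SCAP, the escort of the SREBP factors, had 1 array far from the rest of its group. NC1 5 stood at 5.15, and the nearest of the other 5 NC1 arrays at 5.36, so the gap took 0.655 of the range of the 6 arrays, above Dixon's critical value for 6 arrays. Of the 29 genes tested in NC1 this was the 1 that passed, and chance alone marks about 1 group in 20. SCAP was called in no comparison.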

How the results depend on the processing

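Counts of genes called stayed within 1.5 times the reported ones, and kept their direction, under a second quantile normalization, with only genes above the median level, and with the mean of a gene's probe sets. Some medians moved by more than the spread between replicates. With only genes above the median level (22 of the 29) the median was 0.06 for mimic against NC1, 0.16 for mimic against siRNA, -0.45 for siRNA against NC1 4 to 6 and 0.55 between the NC1 parts. After the second normalization it was 0.18 for mimic against NC1 1 to 3 and 0.36 between the NC1 parts. Of the single calls, 4 were lost after the second normalization, 7 with only the 6 arrays of the contrast and 1 (CYP51A1) with the mean of probe sets, where they kept their direction. For the counts of 0 against all NC1 arrays and between the interventions, other fits gave calls. With the array set as a block the siRNA count was 3 (all higher), the mimic count 5 (all lower) and the count for mimic against siRNA 5 (all lower). A block for the set makes the first 2 differences equal to those against NC1 1 to 3 and NC1 4 to 6. With the NC1 parts as separate means the counts were 5, 3 and 6. With the replicate block (the replicate number as a term) they were 1, 9 and 5, all higher. The share of all genes called in that fit is not given here, so these counts stand without a background. NC1 4 to 6 share no number with another group, so this block compares with NC1 1 to 3 alone. Among the siRNA, mimic and NC1 1 to 3 arrays, correlations of deviations between same-numbered arrays ran from -0.10 to 0.03. Those between differently numbered arrays ran from -0.07 to 0.11. NC1 4 to 6 were left out of that check, so a pairing of these arrays with the mimic arrays was not tested. With only the 6 arrays of the contrast, siRNA against NC1 1 to 3 called 1 gene, and the other counts stayed within 1.5 times. The share of all genes is not given for that setting either.

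Leaving out each array in turn gave 0 to 1 gene for siRNA against NC1, 0 to 0 for the mimic against NC1 and against the siRNA, 1 to 5 for siRNA against NC1 1 to 3, 11 to 15 for siRNA against NC1 4 to 6, 9 to 14 for mimic against NC1 1 to 3, 3 to 7 for mimic against NC1 4 to 6 and 16 to 19 between the NC1 parts. The share of all genes called is not given for fits that left out an array. A left-out array leaves 2 in its group. The cause of these changes was not tested. Called differences from an NC1 part, or between the parts, kept their sign under the second normalization, the median level filter, the mean of probe sets, the 6 arrays alone and each array left out. The array set as a block turned the sign of 18 of 29 differences for mimic against siRNA, of 18 for siRNA against NC1 and of 12 for mimic against NC1. HMGCS1 stood at -0.33 for mimic against siRNA in that fit, against 0.85 as reported, MSMO1 at -0.40 against 0.67, INSIG2 at -0.49 against 0.65, STARD4 at -0.11 against 0.52, ACACA at -0.51 against 0.47 and EBP at -0.28 against 0.34. There were 3 arrays per intervention, and a control whose parts differ for a reason the sources used here do not give. The part of dim probe sets in missing calls was not tested.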

Other observations

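Genes next to the synthesis chains were set against the same contrasts. The isoprenoid branch, which uses farnesyl and geranylgeranyl groups for protein prenylation and other products, had 14 measured genes. Between NC1 4 to 6 and NC1 1 to 3, 1 was higher and 1 lower, where 6.86% and 3.18% of all genes were, and after the siRNA 1 was higher and 2 lower than in NC1 4 to 6, where 5.16% and 6.28% were. Against NC1 1 to 3, 1 was higher and 0 lower after the siRNA, where 3.66% and 2.04% were. After the mimic 1 was higher and 0 lower there, where 6.01% and 2.54% were. Such small counts of 14 are not read as a result about the branch, whose median was 0.02 between the NC1 parts. ZMPSTE24, a protease that trims prenylated prelamin A, was higher than in NC1 1 to 3 after the siRNA, by 0.71 ± 0.12, after the mimic, by 1.39 ± 0.12, and in NC1 4 to 6, by 1.19 ± 0.12 (limma adjusted p = 0.00234, 2.56e-06 and 7.09e-06). Against NC1 4 to 6 it was lower after the siRNA, with -0.48 ± 0.12. FNTA, a subunit of the farnesyltransferase, ran the other way: it was higher after the siRNA than in NC1 4 to 6, by 0.49 ± 0.10, and lower in NC1 4 to 6 than in NC1 1 to 3, with -0.35 ± 0.10. PDSS1, which makes the side chain of coenzyme Q, was lower after the siRNA than in NC1 4 to 6, with -0.61 ± 0.18.

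Fatty acid oxidation, the breakdown side, had 21 measured genes. After the siRNA 2 were higher and 1 lower than in all NC1 arrays, where 2.35% and 1.66% of all genes were. HADHB, a subunit of the mitochondrial trifunctional protein, was higher by 0.54 ± 0.10 (adjusted p = 0.00976), and by 0.53 ± 0.12 when set against NC1 4 to 6 or 0.56 ± 0.12 when set against NC1 1 to 3. ETFDH, which passes electrons to the respiratory chain, was higher by 0.49 ± 0.12 (adjusted p = 0.0386). It was higher than in NC1 1 to 3 by 0.68 ± 0.10 (adjusted p = 0.00111), while the difference from NC1 4 to 6 was 0.30 ± 0.10 (adjusted p = 0.0747). ACADM, the medium-chain acyl-CoA dehydrogenase, was lower, with -0.61 ± 0.15 (adjusted p = 0.033), although its siRNA and NC1 arrays overlapped. It was lower than in NC1 4 to 6, with -0.72 ± 0.16 (adjusted p = 0.0068), while the difference from NC1 1 to 3 was -0.51 ± 0.16 (adjusted p = 0.0772). Between the NC1 parts 2 of 21 were higher in NC1 4 to 6 and 0 lower, where 6.86% and 3.18% of all genes were. They were ETFDH, by 0.38 ± 0.10, and EHHADH, a peroxisomal enzyme, by 0.41 ± 0.11. After the siRNA 1 of 21 was higher than in NC1 4 to 6 and 2 lower, where 5.16% and 6.28% of all genes were. EHHADH was among the lower ones, with -0.53 ± 0.11 (limma adjusted p = 0.00425). After the mimic 0 of 21 passed the limma test against all NC1 arrays, where 0.641% of all genes were higher and 0.402% lower (unadjusted, 0 higher and 1 lower). Against NC1 1 to 3, 1 of 21 was higher after the mimic and 0 lower, where 6.01% and 2.54% of all genes were. It was ETFDH, by 0.44 ± 0.10.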
